A study of Citrus maxima with 6 samples.

Results

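Alpha and beta tubulin are the paired subunits of microtubules. In a growing plant cell, cortical microtubules guide the complexes that lay cellulose into the wall, and in a dividing cell they build the spindle and the phragmoplast, the scaffold of the new wall. Plant genomes carry several copies of each subunit gene, and the copies differ in level between tissues and stages. The 4 genes described here are 2 alpha tubulins (Cs8g03680 and Cs1g21050), tubulin beta-4 (Cs6g16900) and tubulin beta-1 (Cs8g19650) in ripe pummelo pericarp, 4 of the 29406 genes in the table. They are the alpha and beta tubulin chains that the study named among its differentially expressed genes, so they were chosen because they differed between the same libraries. Their difference between genotypes is therefore given as a description, and the limma calls given beside it are no independent evidence of it. Other tubulin copies of the genome were not identified here, so sums over the 4 genes are not the whole tubulin pool. The names are best Swiss-Prot matches from the study's list, to almond for both alpha genes, to goosegrass for beta-4 and to an oat fragment for beta-1, and a match number such as beta-4 does not define an orthologue.

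RNA-Seq libraries came from the pericarp of ripe 'Guanxi' pummelo, the WT, and from its orange-pericarp mutant, the MT, which accumulates β-carotene in the peel. Each genotype had 3 biological replicates, WT1 to WT3 and MT1 to MT3, and neither was treated. The MT arose as a spontaneous bud mutation and was kept by grafting, so it stands for a single mutant lineage, and the causal change is not given in the sources used here. Values are RPKM, the reads of a gene divided by the length of its exon model and by the reads of the library, which allows levels of different genes to be compared. Whole reads could be recovered because RPKM values of a gene fall on steps, and the libraries were scaled to 9253681 to 11108186 reads. A mean RPKM of 0.3 or more was required for testing, which left 16719 genes, and 4 of 4 tubulin genes were among them. On the scale of log2(RPKM + 0.5), the median gene lay 0.15 higher in MT, and differences of named genes are given relative to it.

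The MT libraries were less alike than the WT libraries. Correlated over all genes tested, which are not independent replicates, pairs of WT libraries had a Pearson's r of 0.970 to 0.978 and pairs of MT libraries one of 0.946 to 0.961. MT3 lay nearest to WT, with r of 0.964 to 0.968, and MT2 furthest, with 0.900 to 0.920. MT3 thus correlated more highly with each WT library than with either of the other MT libraries. Results on the tubulin genes are given below also without MT2 and without MT3. Of the genes tested, 0.0359% passed an adjusted p of 0.05 in limma in either direction, 6 genes in all, and 23.3% had MT libraries wholly above the WT libraries. Rescaling each library by its median ratio changed the balance of the non-overlapping genes, from 3893 above and 896 below to 2220 above and 2176 below, and that of the genes past the threshold from 3 higher and 3 lower to 4 higher and 7 lower.

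For all 4 tubulin genes the lowest MT library exceeded the highest WT library in RPKM, with ratios of the mean RPKM from 4.26 (beta-1) to 9.27 (alpha Cs8g03680). As 23.3% of the genes tested also lay wholly above WT, and as these genes were chosen on these libraries, nothing is read from that count. The adjusted p from limma was under 0.05 for 0 of the 4 (0.0179% of all genes tested were called higher in MT), 4 had an unadjusted p under 0.05 (21.8% of all genes tested did), and limma voom on the recovered reads called 0 of the 4 and 0 genes in all, with 4 of the 4 and 3582 genes at an unadjusted p under 0.05. Without MT3, limma called 864 of the 16719 genes tested, 549 of them higher in MT, and 4 of the 4 tubulin genes were among them. Without MT2 it called 11 genes, 1 tubulin gene among them. Without WT1, WT2, WT3 or MT1 it called 0 of the 4. In bulk pericarp, more tubulin RNA per cell and a larger share of cells with high tubulin cannot be told apart.

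**Figure D1:**
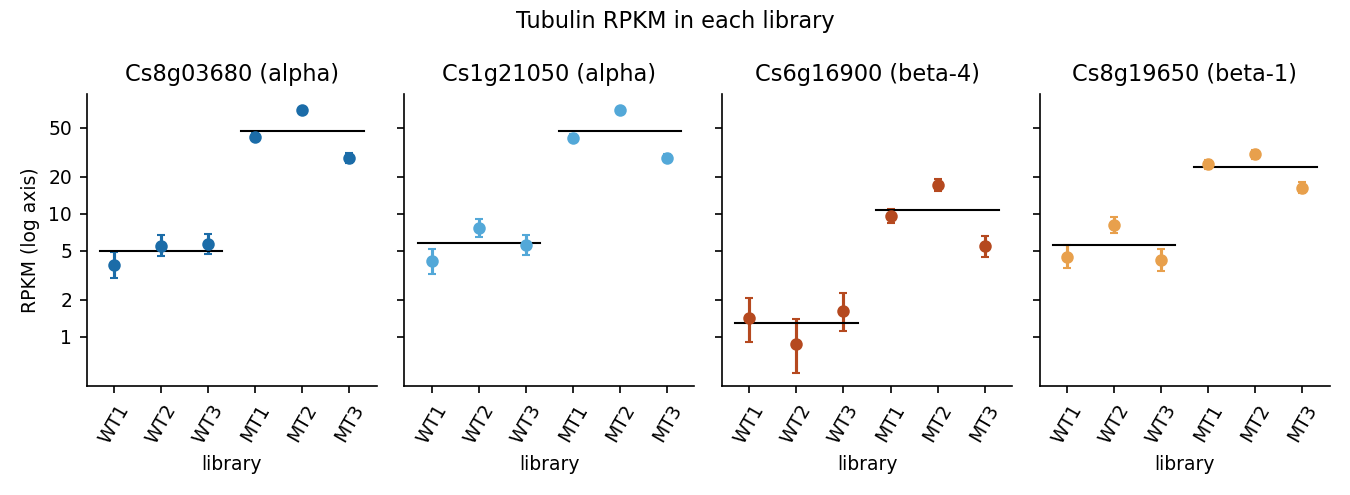
RPKM of each tubulin gene (y axis, logarithmic) in the 3 WT and 3 MT libraries (x axis). Points are library values, bars are exact Poisson 95% intervals for counting error only, and horizontal lines are means of 3 libraries. In each panel the lowest MT point lies above the highest WT point, and MT2 is the highest library.

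Of the alpha genes, Cs8g03680 had RPKM values of 3.84 (WT1), 5.50 (WT2) and 5.69 (WT3) in the wild type. MT1 held 42.2, MT2 68.8 and MT3 28.3. Its lowest MT library was 4.98 times its highest WT library. The means were 5.01 (SD 1.02, n = 3) for WT and 46.5 (SD 20.6, n = 3) for MT. The log2 difference relative to the median gene was 2.87, with a standard error of 0.32, and it became 2.57 without MT2 and 3.17 without MT3. Only 283 reads of this gene were counted over the WT libraries, against 2689 over the MT libraries.

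The second alpha tubulin, Cs1g21050, followed it closely. WT1 held an RPKM of 4.12, WT2 7.67 and WT3 5.55, against 41.3 for MT1, 69.9 for MT2 and 28.3 for MT3. There was no overlap, with a 3.69-fold step from the highest WT to the lowest MT library. The log2 difference was 2.70 (standard error 0.35), or 2.39 without MT2 and 2.995 without MT3. In the MT the RPKM values of the alpha genes were almost equal, and the ratio of Cs8g03680 to Cs1g21050 was 1.02 for MT1, 0.985 for MT2 and 1.001 for MT3. Over WT1 to WT3 it was 0.933, 0.717 and 1.03, so the genotypes overlapped in this ratio. WT2, at 0.717, was the library in which the alpha genes differed most, on 105 reads of Cs8g03680 and 157 reads of Cs1g21050.

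Tubulin beta-4 (Cs6g16900) was the least abundant of the 4 per length in every library. WT1 held an RPKM of 1.41, WT2 0.877 and WT3 1.61, from 25, 17 and 32 reads. The exact Poisson 95% interval of the WT2 value ran from 0.511 to 1.40 RPKM, and that of the WT1 value from 0.913 to 2.08 RPKM, so that the intervals overlapped. MT1 reached 9.59, MT2 17.2 and MT3 5.44, and the lowest of these was 3.37 times the highest WT value. The log2 difference was 2.38 (standard error 0.40), 2.01 without MT2 and 2.76 without MT3. At this low level the value moved with the constant added before the log, from 2.103 with 1 RPKM to 2.68 with 0.1 RPKM.

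Tubulin beta-1 (Cs8g19650) had the smallest ratio of means, 4.26. WT1 held an RPKM of 4.48, WT2 8.10 and WT3 4.23, a level like that of the alpha genes. MT1 held 25.1, MT2 30.2 and MT3 16.3, under both alpha genes in each of these libraries. The lowest MT library, MT3, lay 2.01-fold above WT2, the narrowest gap of the 4 genes. Relative to the median gene the log2 difference was 1.86 (standard error 0.31), with 1.70 without MT2 and 2.1003 without MT3.

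Against the other genes of the pericarp, each tubulin gene ranked higher in the MT than in the WT. By mean RPKM in the WT, beta-4 exceeded 16.9% of the genes tested, Cs8g03680 36.3%, beta-1 38.4% and Cs1g21050 38.9%. In the MT, beta-4 exceeded 49.5%, beta-1 70.1% and each alpha gene 84.2%. The alpha genes thus moved from rank 10648 (Cs8g03680) and 10221 (Cs1g21050) in the WT to 2643 and 2642 in the MT. With the study's class limits of 3 and 15 RPKM, both alpha genes and beta-1 were of medium level in 3 of 3 WT libraries and of high level in 3 of 3 MT libraries. Beta-4 was of low level in 3 of 3 WT libraries and of medium level in 2 MT libraries, reaching the high class only in MT2. Ordered by the size of the log2 difference, highest in MT first, Cs8g03680 stood 31st, Cs1g21050 38th, beta-4 61st and beta-1 146th of the 16719 genes.

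**Figure D2:**
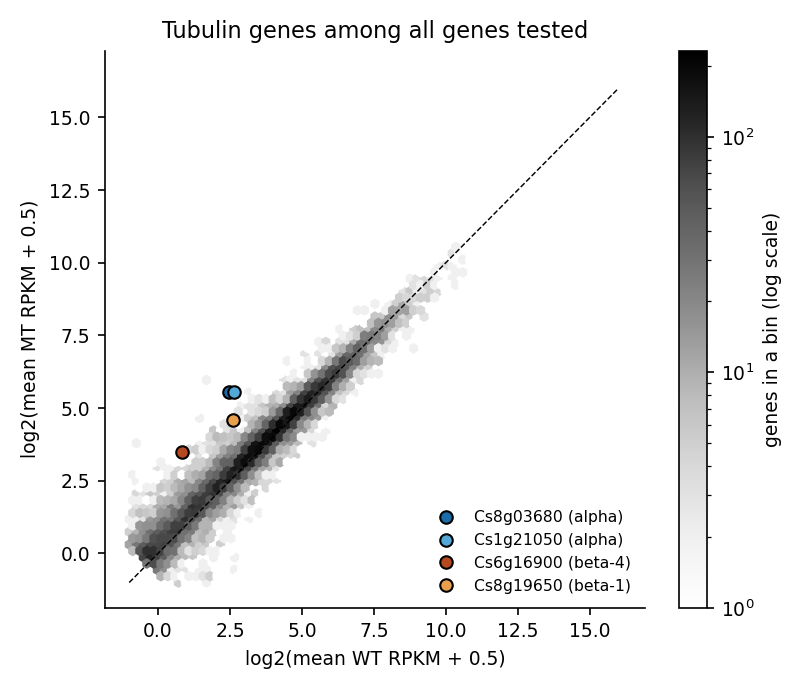
Mean level of each gene tested in WT (x axis) and MT (y axis), both as log2 of the mean RPKM plus 0.5, with the number of genes per bin in grey on a log scale. The dashed line marks equal values. The 4 tubulin genes lie above the line, and the alpha genes, with ratios of 9.27 and 8.05, lie almost on each other.

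The summed RPKM of the 4 genes was 13.8 for WT1, 22.1 for WT2 and 17.1 for WT3, and it was 118 for MT1, 186 for MT2 and 78.4 for MT3. Averaged by genotype, the sum was 17.7 for WT (SD 4.18, n = 3) and 128 for MT (SD 54.5, n = 3), 7.21 times the WT value. In the makeup of this sum, the genotypes did not overlap for the alpha genes or for beta-1. The alpha genes together held 57.5% of it in WT1, 59.5% in WT2 and 65.8% in WT3, but 70.7% in MT1, 74.5% in MT2 and 72.3% in MT3. Beta-1 held 32.3%, 36.6% and 24.8% in the WT libraries, and 21.2%, 16.2% and 20.8% in the MT libraries. The shares of beta-4 overlapped, with 3.96% to 10.2% in WT and 6.94% to 9.25% in MT.

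As a ratio, the RPKM of the alpha genes over that of the beta genes was 1.35 for WT1, 1.47 for WT2 and 1.92 for WT3. The MT values were 2.41 for MT1, 2.92 for MT2 and 2.61 for MT3, so the MT libraries lay wholly above the WT libraries. The means were 1.58 (SD 0.302, n = 3) and 2.65 (SD 0.260, n = 3). Depth limits the WT values, which rest on 258 to 455 reads a library. The exact Clopper-Pearson 95% interval of the ratio in WT3, 1.54 to 2.41, overlapped that in MT1, 2.21 to 2.62, and such intervals cover counting error only. Taking geometric means of each subunit pair in place of sums gave 2.06 in WT and 2.91 in MT, still without overlap. Between single genes, the ratio of Cs8g03680 to beta-1 did not overlap, at 0.680 to 1.34 in WT and 1.68 to 2.28 in MT. The ratio of Cs8g03680 to beta-4 did, at 2.72 to 6.27 in WT and 3.995 to 5.21 in MT. The ratio of beta-4 to beta-1 overlapped as well, at 0.108 to 0.382 in WT and 0.334 to 0.570 in MT. These ratios use the libraries on which the genes were chosen, and their differences were not tested. Only uniquely mapped reads were counted, so that reads shared with a near-identical tubulin copy can be missing from any of the 4 genes.

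**Figure D3:**
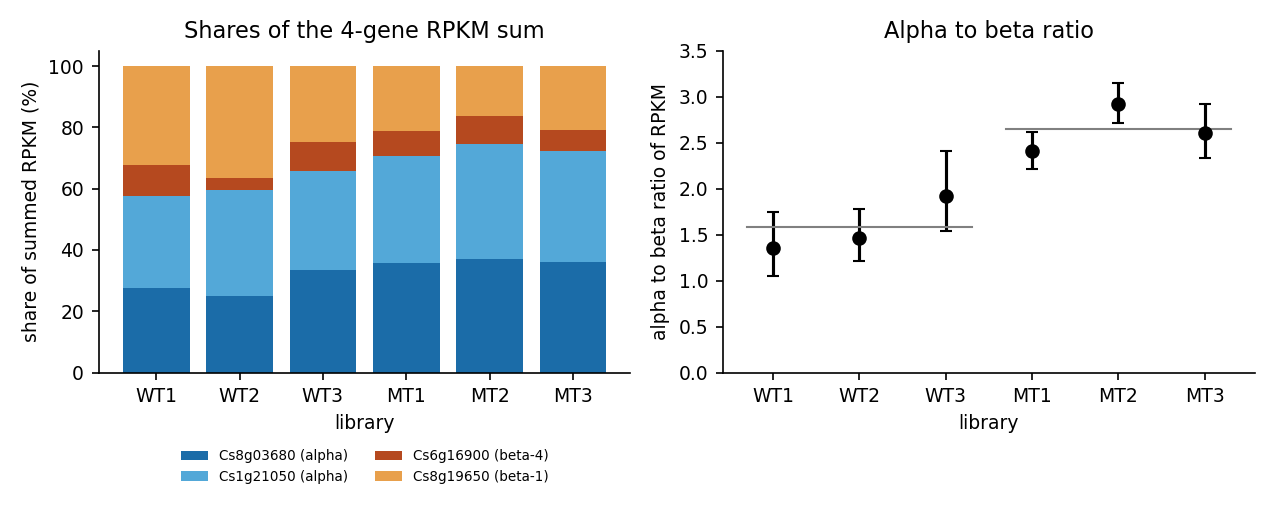
Left, the share of each gene in the summed RPKM of the 4 tubulin genes (y axis, %) in each library (x axis). Right, the ratio of alpha to beta RPKM (y axis) in each library (x axis), with exact Clopper-Pearson 95% intervals for counting error and lines at the means of 3 libraries. The MT points, 2.41 to 2.92, lie above the WT points, 1.35 to 1.92.

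Within the MT, all 4 genes had the same order of libraries, MT2 above MT1 above MT3. MT2 exceeded MT3 2.43-fold for Cs8g03680, 2.47-fold for Cs1g21050, 3.17-fold for beta-4 and 1.86-fold for beta-1. The order was not particular to tubulin. It was found in 22.1% of all genes tested and in 41.9% of the 3893 genes with MT wholly above WT, and MT3 is the MT library nearest to WT. After rescaling by the median ratio, 4 of 4 tubulin genes kept this order, although the step of beta-1 from MT1 to MT2 shrank from 1.20-fold to 1.08-fold. Expressed as a share of the mean, the SD over the MT libraries was 44.3% for Cs8g03680, 45.7% for Cs1g21050, 55.6% for beta-4 and 29.5% for beta-1. Counting error alone would give about 3.39% to 7.48% for these genes.

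Within the WT, the order of libraries differed from gene to gene. Cs1g21050 and beta-1 were highest in WT2, beta-4 was lowest there, and Cs8g03680 was highest in WT3. The SD over the WT libraries was 20.3% of the mean for Cs8g03680, 30.9% for Cs1g21050, 29.3% for beta-4 and 38.6% for beta-1, where counting error would give 10.5%, 9.55%, 20.6% and 9.48%.

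The likeness of profiles was measured as a distance, the root mean square difference over the 6 libraries between log2(RPKM + 0.5) values after each gene was centred on its own mean. No correlation is given, because the libraries fall into 2 genotypes. Of the 16718 other genes tested, Cs1g21050 was the nearest to Cs8g03680, and Cs8g03680 was the nearest to Cs1g21050, at a distance of 0.17, which became 0.0449 when WT2 was left out. With any single library left out, each alpha gene stayed among the 4 nearest genes of the other. They were no longer each other's nearest gene without WT1, MT1 or MT3, or with 0.1 RPKM added before the log. Beta-4 ranked 15th from Cs8g03680 and 38th from Cs1g21050. In the other direction, Cs8g03680 ranked 30th and Cs1g21050 50th from beta-4. Beta-1 ranked 79th from Cs8g03680, 49th from Cs1g21050 and 134th from beta-4. Seen from beta-1 the others were further down, with Cs1g21050 at 239th, beta-4 at 475th and Cs8g03680 at 542nd. Ranks among all genes are helped by the choice of the 4 genes, which share the direction of their difference.

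The genes nearest to the mean profile of the 4 tubulins were sought among 12399 other genes with a mean RPKM of 3 or more, and the nearest 6 lay at distances of 0.13 to 0.23, where the median gene tested lay at 1.30. In this set, 3 genes have a name in the study's list. ATHB-5 (Cs3g17870), a homeodomain-leucine zipper transcription factor known from abscisic acid responses in Arabidopsis, had an RPKM of 6.62, 9.75 and 7.73 over WT1 to WT3, against 44.3, 65.5 and 26.6 over MT1 to MT3. HDG5 (Cs3g09300), a homeodomain factor of the epidermal cell layer in Arabidopsis, had 2.02, 2.37 and 1.93 in the WT and 16.5, 25.3 and 12.7 in the MT. D-3-phosphoglycerate dehydrogenase (orange1.1t04497), which opens a route of serine synthesis in plastids, had 2.18, 2.62 and 2.85 in the WT and 16.1, 23.7 and 8.97 in the MT. The closeness of these profiles, their order of libraries included, is what chose them. The others, Cs1g11370, Cs1g06830 and Cs8g01670, carry no name in the rows used. Nearest to beta-4 alone was orange1.1t04497, and nearest to beta-1 alone was wall-associated receptor kinase 3 (Cs5g22230). The filter of 3 RPKM used the mean over all 6 libraries, which favours genes high in MT. HDG5, orange1.1t04497, Cs1g11370 and Cs8g01670 had WT means of 2.11, 2.55, 0.655 and 2.83 and passed it only through MT. So did Cs5g22230, with a WT mean of 2.52.

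**Figure D4:**
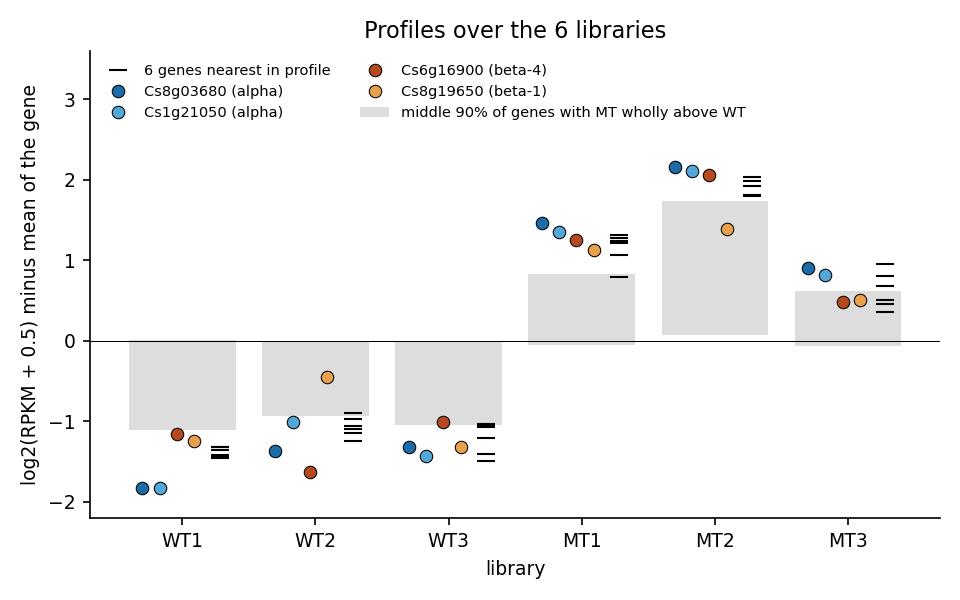
Log2(RPKM + 0.5) minus the mean of the gene (y axis) in each library (x axis). Coloured points are the 4 tubulin genes, black dashes the 6 genes nearest to their mean profile, and grey bars the middle 90% of genes with MT wholly above WT. The tubulin genes are highest in MT2 and lowest of the MT libraries in MT3.

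Beside the alpha and beta chains, 2 further microtubule genes of the study's list are described, chosen there on these libraries, which is not independent evidence of a direction. The adjusted p from limma was 0.05 or more for 2 of them (0.0359% of all genes tested were called), 2 had an unadjusted p under 0.05 (21.8% of all genes), and 2 lay with MT wholly above WT (23.3% of all genes). Their median log2 difference was 1.21, against 0 for all genes tested by construction. The gamma-tubulin complex component 3 homolog (orange1.1t02217), part of the complex that starts new microtubules, had an RPKM of 1.65, 2.11 and 1.56 over WT1 to WT3. MT1 held 4.40, MT2 5.16 and MT3 3.99, a ratio of means of 2.54, under those of the 4 tubulin chains. Cs9g03490, a match to the mouse kinesin KIFC3, a motor protein that moves along microtubules, had 1.08, 0.480 and 0.392 in the WT and 2.43, 4.46 and 2.07 in the MT.

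Cell wall genes of the same list were set beside the tubulins because cortical microtubules guide the laying of cellulose into the wall in growing cells. A link between the tubulins and these wall genes was not tested. There were 10 such genes, of which limma called 0 at the adjusted p of 0.05 (0.0359% of all genes tested) and 10 had an unadjusted p under 0.05 (21.8% of all genes). MT lay wholly above WT for 8 and wholly below for 2, against 23.3% and 5.36% of all genes tested. The study chose these genes on these libraries too, and their median log2 difference was 1.93. Pectate lyase 5, galacturonosyltransferase-like 2 (Cs1g23610) and wall-associated receptor kinase-like 2 (Cs3g14000) averaged 0.153, 0.0644 and 0.157 RPKM in WT. As these means lay under the filter of 0.3, the genes concerned were tested only through their MT level. Fasciclin-like arabinogalactan protein 1 (Cs4g08750), a wall surface glycoprotein, had an RPKM of 1.70, 1.86 and 1.38 over WT1 to WT3, against 14.3, 16.4 and 5.30 over MT1 to MT3. Galacturonosyltransferase-like 1 (Cs3g24380), of a family that builds wall polysaccharides, had 9.11, 17.3 and 12.7 in the WT and 57.7, 71.3 and 31.3 in the MT. Wall-associated receptor kinase 3 (Cs5g22230) had 2.05, 3.33 and 2.19 against 12.4, 18.6 and 9.88. Protein E6 (Cs2g05560), named for a protein of cotton fibres, had 0.532 to 0.874 in WT and 2.82 to 6.61 in MT. Among enzymes that act on pectin, pectinesterase 3 (Cs1g16550) had 9.45 to 27.9 in WT and 73.1 to 175 in MT, and pectate lyase 5 (Cs7g09860) had 0.109 to 0.183 in WT, from 8 reads, and 2.34 to 4.91 in MT. The 2 genes with MT below WT were pectinesterase 2 (orange1.1t00214), at 396 to 477 in WT and 41.9 to 262 in MT, and an endoglucanase match (Cs7g09680), at 58.8 to 78.1 in WT and 7.80 to 44.9 in MT. In both, MT2 was the lowest and MT3 the highest MT library, the reverse of the order in the tubulins. The share of all genes tested with this reversed order was not computed. Over all genes tested, MT2 was also the MT library furthest from WT and MT3 the nearest.

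**Figure D5:**
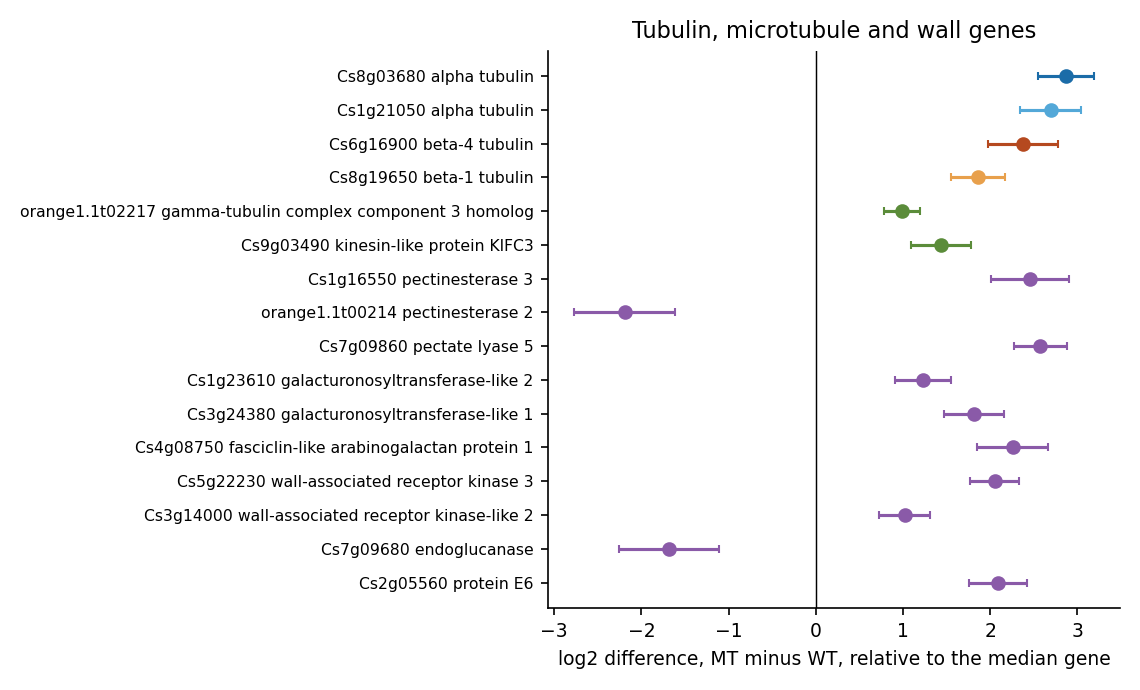
Log2 difference between MT and WT after subtraction of the median gene (x axis, positive where MT is higher), with bars of 1 standard error of limma, for the 4 tubulin genes (blue and orange), 2 microtubule genes (green) and 10 wall genes (purple) of the study's list (y axis). The wall genes below 0 are pectinesterase 2 and the endoglucanase match.

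Genes of the fruit surface were read in the same libraries. The study chose these genes on these libraries as well, so the counts below are no independent evidence of a difference. Of 6 surface and stomatal genes in the study's lists, 1 passed an adjusted p of 0.05 in limma (HDG5), where 0.0359% of all genes tested did, and 4 had an unadjusted p under 0.05, where 21.8% did. MT lay wholly above WT for 3 and wholly below for 3 (23.3% and 5.36% of all genes), and their summed RPKM was 2438 to 3198 in WT and 241 to 1977 in MT. Nearly all of this sum was from 2 genes matching DCR, an acyltransferase needed for cutin in Arabidopsis, and neither had an unadjusted p under 0.05. Of these, Cs9g17750 had an RPKM of 1603, 1229 and 1630 over WT1 to WT3, against 711, 97.4 and 978 over MT1 to MT3. MT2, the library with the highest tubulin level, was thus the lowest in DCR, and MT3, the MT library with the lowest tubulin level, was the highest. MUTE (Cs9g06130), a factor of the stomatal lineage, had 21.2 to 24.99 in WT and 2.25, 3.67 and 5.62 over MT1 to MT3. Its lowest library was thus MT1, unlike DCR. EPFL9 (Cs7g16890), a peptide that promotes stomata, had 0 reads over the WT libraries, which allows up to 3 by counting error, and 29 over the MT libraries. It was thus tested only through its MT level. Limonene synthase 1 (Cs5g22980), whose product fills the oil glands of citrus peel, was detected at 1.68 to 4.03 in WT. Over MT1 to MT3 it held 0.0494, 0.0555 and 0.280, from 7 reads in all, so MT1 was the lowest, as for MUTE. The MT mean of limonene synthase 1, 0.128, lay under the filter of 0.3, so it was tested only through its WT level. The share of all genes tested with MT2 lowest and MT3 highest of the MT libraries was not computed. Other surface genes had the order of the tubulins, MT2 above MT1 above MT3, which 22.1% of all genes tested had. These were HDG5, ASPG1 (orange1.1t00502), at 8.68, 15.4 and 7.65 over MT1 to MT3, and EPFL9, at 1.01, 1.59 and 0.573. The part of surface tissue, or of its share in the sampled pericarp, in the tubulin difference was not tested.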

How the data were processed

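Members and lists were chosen with earlier results of these libraries known. The authors aligned cleaned single-end reads to sweet orange gene models with TopHat (Bowtie2 2.1.0 in the submitters' processing notes) and deposited RPKM from uniquely mapped reads for 29406 genes. The read counter and gene lengths are not given in the sources used here. Lengths, library scales and whole reads were recovered from RPKM steps for 23454 of 23454 genes above 0, within 0.005 reads. The shortest length from 150 bp up that gave whole reads was taken, so this full rate was largely built in. Reads of a gene whose counts share a common factor can come out too low. The recovered reads sum to 99.7% of each scale, and precision rests on them. Log2(RPKM + 0.5) values were fitted, for genes averaging 0.3 RPKM or more, in limma 3.58.1 (R 4.3.3, eBayes with trend, no block, Benjamini-Hochberg adjustment over all genes at 0.05). The study used DESeq on counts, and a count model was not the test for RPKM. The named genes are the 4 tubulins, the tubulin, kinesin and wall names of the study's list (1 further gene of the rule is not reported here), surface genes, and the 6 genes nearest in profile. P-values measure the spread between 3 libraries a genotype. Alternatives were other pseudocounts, filters, scalings, eBayes options, a replicate block, limma voom and leaving out each library. Other steps used Python 3.11.15 with scipy 1.17.1 and pandas 2.3.3. Sequences and coordinates were not used here.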

Additional observations from a re-analysis of the deposited data

How the results depend on the processing

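The 4 log2 differences kept their direction and moved by less than 1 SD between replicates in 68 of 68 alternatives, and 4 of 4 genes kept MT wholly above WT in each. Part of this was fixed in advance. The eBayes options and the replicate block leave the log2 difference unchanged. Pseudocounts, filters and leaving out a library cannot create an overlap, so only the scalings and limma voom could have done so. Leaving out each library gave 2.57 to 3.17 for Cs8g03680, 2.39 to 2.995 for Cs1g21050, 2.01 to 2.76 for Cs6g16900 and 1.70 to 2.16 for Cs8g19650. The number of genes past an adjusted p of 0.05 was 6, and it was 10 with a pseudocount of 0.1 (1 tubulin gene among them), 9 with a mean RPKM filter of 3 (1 tubulin gene), 11 with median ratio rescaling, 12 with quantile normalization, 15 without the trend and 0 with limma voom. It was 0 to 864 with each library left out, at 0 without WT1, WT2 or WT3 (2261 to 2970 genes at an unadjusted p under 0.05), 11 without MT2 and 864 without MT3, with 0, 1 and 4 tubulin genes among them. With a replicate block it was 122, of which 91 were higher in MT, and 3 tubulin genes were among them. Deviations of same-numbered libraries from their genotype means correlated across genes at -0.0458, 0.193 and 0.158. The MT library that correlated best was MT3 for WT1, MT2 for WT2 and MT3 for WT3. With so few libraries these values cannot decide whether the replicate numbers pair the samples, and the main fit used no block. The number of genes with MT wholly above WT, 3893, became 2220 with median ratio rescaling, 2376 with quantile normalization and 4242 to 5583 with each library left out. The alpha to beta ratio became 2.06 in WT and 2.91 in MT with geometric means, and leaving out each library gave 1.41 to 1.69 in WT and 2.51 to 2.77 in MT. Ranked among all genes above 0 in a library, the percent of genes exceeded rose by construction, to 54.6% for Cs8g03680, 56.4% for Cs1g21050, 40.7% for Cs6g16900 and 56.1% for Cs8g19650 in WT, and to 64.0% for Cs6g16900 and 78.7% for Cs8g19650 in MT. Of the 6 nearest genes, 5 or 6 were the same under other pseudocounts and rescaling. Depth limits Cs6g16900 in WT, which rests on 74 reads.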
